A study of Mus musculus with 8 samples.

Results

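The genes described are the forkhead box O (FoxO) transcription factors Foxo1, Foxo3 and Foxo4 and 7 genes known as FoxO targets, 8430408G22Rik (the mouse Depp gene), Txnip, Sesn1, Sesn3, Cited2, Bcl6 and Cdkn1b. They were taken by gene symbol and make up 10 of the 22520 genes in an RNA-seq table of cells described as mouse microvascular endothelial cells (ECs). By the marker levels given below, the libraries also held much RNA of other cell types, with fibroblast markers summing to more than EC markers in every library. They were chosen with results of the same contrast known, so their differences are given as a description. No p-value is given for them, and nothing is read from the calls among them. Of the 8 libraries, 4 came from wild-type (WT) mice and 4 from mice lacking LRP1, a large endocytic and signaling receptor, in the endothelium (LRP1 KO). All were C57BL/6 animals at postnatal day 14. According to the study's methods, both genotypes carried floxed Lrp1 alleles (LRP1 f/f), the KO mice were Cdh5-CreER+/- and the littermate controls were Cdh5-CreER-/-. CreER is a recombinase that becomes active with tamoxifen, and here it was driven by the promoter of the EC gene Cdh5. The controls carry no CreER, so the presence of the recombinase and the loss of Lrp1 cannot be told apart. The labels call each library a mix of cells from 3 organs, heart, liver and lung, and do not give the number of animals behind it. The study's text instead describes liver ECs and heart and lung ECs as separate preparations, and the table gives no column by organ, so a level here may average over organs in an unknown ratio.

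FoxO proteins bind a short forkhead motif in DNA and act mainly as transcriptional activators. Insulin and growth factors signal through PI3K and AKT, which phosphorylates FoxO proteins so that 14-3-3 proteins hold them in the cytoplasm, while stress signals favor their presence in the nucleus. In ECs they are known as brakes on proliferation and vessel growth, and their targets include cell-cycle inhibitors, stress-response genes and metabolic genes. RNA levels show neither phosphorylation nor nuclear location, so the activity of the factors was not measured.

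Lrp1 itself ranged from 103 to 140 FPKM (fragments scaled to gene length and library size) in WT and from 2.79 to 7.72 FPKM in LRP1 KO libraries, where its mean was 3.99% of the WT mean and KO library 4 was highest. The cell type was checked with summed marker levels. The 20 EC markers summed to 222 to 239 FPKM in WT and to 720, 464, 550 and 216 FPKM in LRP1 KO libraries 1 to 4. KO library 4 thus stood apart, with Pecam1 at 6.72 FPKM against 18.5 to 36.3 FPKM in the other 3 KO libraries. Of the 19 tested EC markers, 18 were higher in KO, but only 1 was called higher and 0 were called lower. The 12 fibroblast markers summed to more than the EC markers in every library, 2639 to 3790 FPKM in WT and 2211 to 3445 FPKM in KO, although Lrp1 was at most 6.42% of the WT mean in any KO library. Of the fibroblast markers, 11 of 12 were lower in KO, and 3 were called lower and 1 higher. Their median log2 difference was -0.30, beside -0.31 for the 10 genes described here, which were chosen on this contrast. A relation between these medians was not tested. The 16 macrophage markers summed to 95.3 to 123 FPKM in WT and 273 to 648 FPKM in KO, and 10 of the 12 with a WT mean of at least 1 FPKM rose. The 10 mural cell markers summed to 675 to 841 FPKM in WT and 1046 to 1646 FPKM in KO, and 5 of the 8 with such a WT mean rose. The 10 pan-leukocyte markers summed to 189 to 230 FPKM in WT and 181 to 213 FPKM in KO, although 3 of the 4 with such a WT mean rose, and Ptprc, which was too low to be tested, was at 0.0316 to 0.161 FPKM in WT and 0.403 to 0.860 FPKM in KO, without overlap. No marker was listed at 0 in all libraries. In such bulk samples, fewer cells of a type and less RNA per cell cannot be told apart.

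**Figure D1:**
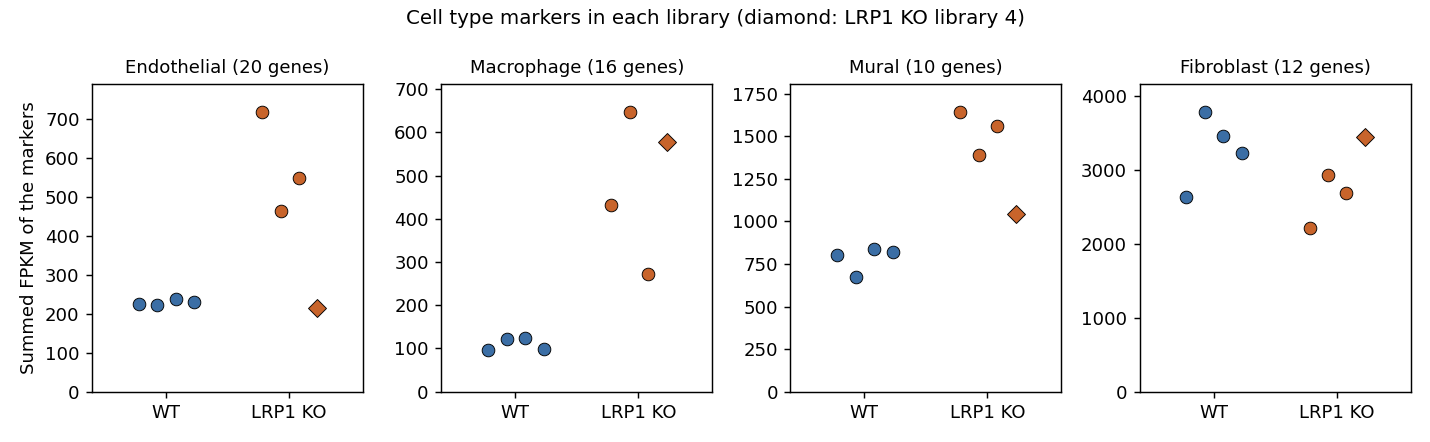
Summed FPKM of the marker lists (y axis of each panel) by group (x axis), with 1 point per library. The EC sum of LRP1 KO library 4 is 216 FPKM, below every WT library, while its macrophage sum is 578 FPKM, above every WT library.

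The promoters of the members were read from RefSeq on build GRCm38.p6, where 9 of the 10 members had an entry, with 11 start sites in all. The forkhead core GTAAACA was searched on both strands of the 250 bases before each start. It was found for 1 of the 11 member promoters, that of Txnip, and in 3.17% of all 32851 promoters of this length. The motif CAAAACA, the start of the insulin response sequence, was found in 0 of 11 and in 5.56% of all promoters. The forkhead variant GTAAATA, which was added after the sequences had been read, was found in 1 of 11, that of 8430408G22Rik, and in 2.73% of all. The matches did not overlap each other, and a match describes letters only. The stretches from 250 to 101 bases before the start are shown for these 2 genes because they hold the matches, which are in capitals. Both run along the plus strand, chr6:116650434-116650583 for 8430408G22Rik and chr3:96557707-96557856 for Txnip.
8430408G22Rik: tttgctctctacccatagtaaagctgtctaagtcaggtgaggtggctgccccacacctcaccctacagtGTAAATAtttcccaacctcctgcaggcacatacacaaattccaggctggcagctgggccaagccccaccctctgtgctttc
Txnip: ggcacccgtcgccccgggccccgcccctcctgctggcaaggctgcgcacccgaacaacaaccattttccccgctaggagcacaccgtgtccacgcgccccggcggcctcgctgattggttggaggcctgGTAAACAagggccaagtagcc
The match of 8430408G22Rik lies 181 to 175 bases and that of Txnip 121 to 115 bases before the start, both on the strand of the gene. These 2 genes lay at opposite ends of the comparison of genotypes, 8430408G22Rik with the largest difference of the 10 and Txnip with almost none.

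The largest differences among the 10 were those of 8430408G22Rik and Sesn1, which were lower in all LRP1 KO libraries, and the KO means of the 3 FoxO factors were 75.7% to 78.8% of WT. On the log2(FPKM + 1) scale, 9 of the 10 differences (KO minus WT) were negative, with a median of -0.31 beside -0.01 over all 11389 tested genes. Only Cited2 had a higher mean in KO. With limma across all tested genes, 4 of the 10 passed an adjusted p of 0.05, all of them lower (Foxo1, Foxo4, 8430408G22Rik and Sesn1), beside 7.31% of all tested genes called lower and 13.6% called in either direction, and 0 were called higher, beside 6.27%. Only 8430408G22Rik also passed a 2-fold change, as did 1.62% of all genes in either direction and 0.5% downward. The KO libraries lay entirely below the WT libraries for the same 4 members, against 10.7% of all tested genes, and above them for 0 members, against 8.84% (19.6% in either direction). As the members were chosen on this contrast, nothing is read from these counts. The count of 4 became 7 without KO library 4, when 26.2% of all genes were called, and 2, 8430408G22Rik and Sesn1, without any other single library, when 3.83% to 8.74% were called. It was 0 with macrophage markers as a covariate (0.0439% of all genes called) and 2 with EC markers as a covariate (1.49%).

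**Figure D2:**
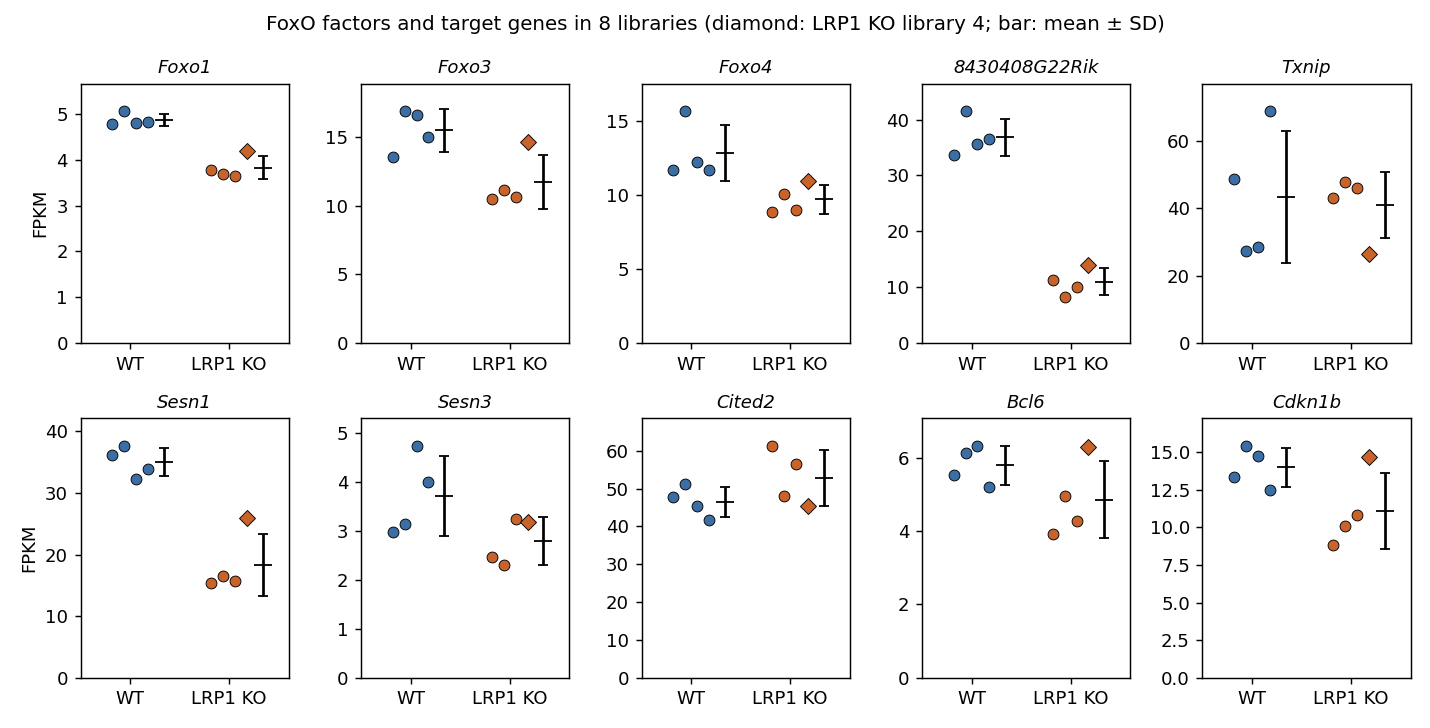
FPKM of each of the 10 genes (y axis, from 0, 1 panel per gene) in WT and LRP1 KO libraries (x axis), with 1 point per library (a diamond for KO library 4) and bars for the mean ± SD. The groups are apart for Foxo1, Foxo4, 8430408G22Rik and Sesn1 and overlap for the other 6 genes.

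Among the factors, Foxo1, the member best known for control of metabolism and vessel growth in ECs, is encoded on chromosome 3 (52268336 to 52353221, plus strand, ENSMUSG00000044167). It measured 4.78, 5.06, 4.80 and 4.83 FPKM across WT libraries 1 to 4, compared with 3.79, 3.70, 3.65 and 4.20 FPKM across KO libraries 1 to 4, the order used throughout. The KO libraries were all below the WT libraries, and KO library 4 lay nearest to them. The means were 4.87 ± 0.130 and 3.83 ± 0.253 FPKM (SD, n = 4 each), so the KO mean was 78.8% of WT, with a log2 difference of -0.28 (SE 0.07).

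Foxo3, which shares most targets with Foxo1 and is linked to stress resistance and cell death, lies on chromosome 10 (42181841 to 42276755, minus strand, ENSMUSG00000048756). Its level was 13.5, 16.8, 16.6 and 14.99 FPKM across WT libraries, compared with 10.5, 11.1, 10.6 and 14.6 FPKM across KO libraries. The first 3 KO libraries were below all WT libraries, but KO library 4 lay within the WT range, so the groups overlapped. The means of 15.5 ± 1.55 and 11.7 ± 1.95 FPKM (SD, n = 4) gave a KO mean of 75.8% of WT and a log2 difference of -0.38 (SE 0.11), or -0.48 without KO library 4.

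Foxo4, the X-linked factor (101254528 to 101260873, plus strand, ENSMUSG00000042903), measured 11.7, 15.7, 12.3 and 11.7 FPKM across WT libraries, compared with 8.87, 10.1, 9.04 and 10.95 FPKM across KO libraries. The groups did not overlap, with WT library 2 above the other WT libraries. The mean was 12.8 ± 1.90 FPKM in WT and 9.73 ± 0.970 FPKM in KO (SD, n = 4), 75.7% of WT, and the log2 difference was -0.36 (SE 0.10). The other family member, Foxo6, ranged from 1.99 to 3.67 FPKM in WT and from 1.80 to 2.23 FPKM in KO. It was not called (log2 difference -0.37, SE 0.14, limma adjusted p = 0.101), and its groups overlapped.

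8430408G22Rik encodes DEPP, a small protein named for its induction by progesterone in decidual cells and known as a FoxO target in ECs. The gene (chromosome 6, 116650609 to 116652794, plus strand, ENSMUSG00000048489) measured 33.7, 41.5, 35.7 and 36.5 FPKM across WT libraries, compared with 11.3, 8.27, 10.04 and 14.0 FPKM across KO libraries. Every KO library was below every WT library by more than the spread within either group. The mean changed from 36.8 ± 3.30 to 10.9 ± 2.41 FPKM (SD, n = 4), to 29.6% of WT, with a log2 difference of -1.68 (SE 0.13) that ranged from -1.80 to -1.57 as each library was left out. It lies within the Rassf4 gene on the opposite strand, with 0 of its 1358 exon bases shared with Rassf4 exons in GENCODE. Rassf4 fell from 4.82 ± 0.584 to 2.71 ± 0.222 FPKM (SD, n = 4, log2 difference -0.65, SE 0.09, limma adjusted p = 0.00415). Whether reads were assigned by strand is not given in the sources used here.

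The sestrins are stress-induced proteins that restrain mTORC1 signaling and limit reactive oxygen species. Sesn1 (chromosome 10, 41809935 to 41908424, plus strand, ENSMUSG00000038332), which also responds to p53, measured 36.1, 37.6, 32.3 and 33.9 FPKM across WT libraries, compared with 15.4, 16.5, 15.7 and 25.9 FPKM across KO libraries. The groups did not overlap, and KO library 4 stood between the other KO libraries and WT. The mean was 35.0 ± 2.32 FPKM in WT and 18.4 ± 5.03 FPKM in KO (SD, n = 4), or 52.5% of WT, with a log2 difference of -0.92 (SE 0.15), or -1.09 without KO library 4. Its annotated gene lies 273417 bases from that of Foxo3.

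Sesn3, the sestrin most often tied to FoxO factors, lies on chromosome 9 (14275067 to 14333101, plus strand, ENSMUSG00000032009) and was low throughout. It measured 2.98, 3.15, 4.74 and 3.995 FPKM across WT libraries, compared with 2.47, 2.30, 3.25 and 3.19 FPKM across KO libraries. The 2 lowest WT libraries lay below the 2 highest KO libraries. The means were 3.71 ± 0.814 and 2.80 ± 0.490 FPKM (SD, n = 4), a KO mean of 75.4% of WT and a log2 difference of -0.30 (SE 0.14). The third sestrin gene, Sesn2, was at 17.8 to 19.9 FPKM in WT and 17.9 to 20.3 FPKM in KO and was not called (log2 difference 0.04, SE 0.06, limma adjusted p = 0.651).

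Txnip, which encodes an inhibitor of thioredoxin that also restrains glucose uptake, was the most variable of the 10 genes between WT libraries. Its level (chromosome 3, 96557957 to 96561883, plus strand, ENSMUSG00000038393) was 48.7, 27.3, 28.4 and 68.8 FPKM across WT libraries, compared with 43.2, 47.8, 46.1 and 26.5 FPKM across KO libraries. The WT libraries spanned the whole KO range apart from KO library 4, which was the lowest of all 8. The means of 43.3 ± 19.7 and 40.9 ± 9.82 FPKM (SD, n = 4) gave a log2 difference of -0.01 (SE 0.30), and its sign turned as single libraries were left out (-0.19 to 0.24).

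Cdkn1b encodes p27, a cyclin-dependent kinase inhibitor that holds cells in G1. It lies on chromosome 6 (134920401 to 134925513, plus strand, ENSMUSG00000003031) and measured 13.3, 15.4, 14.7 and 12.5 FPKM across WT libraries, compared with 8.80, 10.1, 10.8 and 14.7 FPKM across KO libraries. Without KO library 4 the groups would be apart, but that library matched the higher WT libraries. The means were 14.0 ± 1.32 and 11.1 ± 2.55 FPKM (SD, n = 4), with a KO mean of 79.4% of WT and a log2 difference of -0.33 (SE 0.14).

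Bcl6, a transcriptional repressor of the zinc finger family, lies on chromosome 16 (23965052 to 23988852, minus strand, ENSMUSG00000022508). It measured 5.52, 6.13, 6.31 and 5.20 FPKM across WT libraries, compared with 3.92, 4.95, 4.27 and 6.28 FPKM across KO libraries. Again 3 KO libraries were below all WT libraries and KO library 4 was within their range. The means were 5.79 ± 0.521 and 4.86 ± 1.04 FPKM (SD, n = 4), 83.9% of WT, and the log2 difference was -0.23 (SE 0.12), or -0.34 without KO library 4.

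Cited2, a coregulator that competes with HIF-1α for CBP/p300, was the only member with a higher mean in KO. It lies on chromosome 10 (17723218 to 17725674, plus strand, ENSMUSG00000039910) and measured 47.8, 51.2, 45.3 and 41.6 FPKM across WT libraries, compared with 61.2, 47.9, 56.5 and 45.5 FPKM across KO libraries. The groups overlapped, since KO libraries 2 and 4 lay within the WT range. The means were 46.5 ± 4.05 and 52.8 ± 7.34 FPKM (SD, n = 4), a KO mean of 114% of WT and a log2 difference of 0.17 (SE 0.10).

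**Figure D3:**
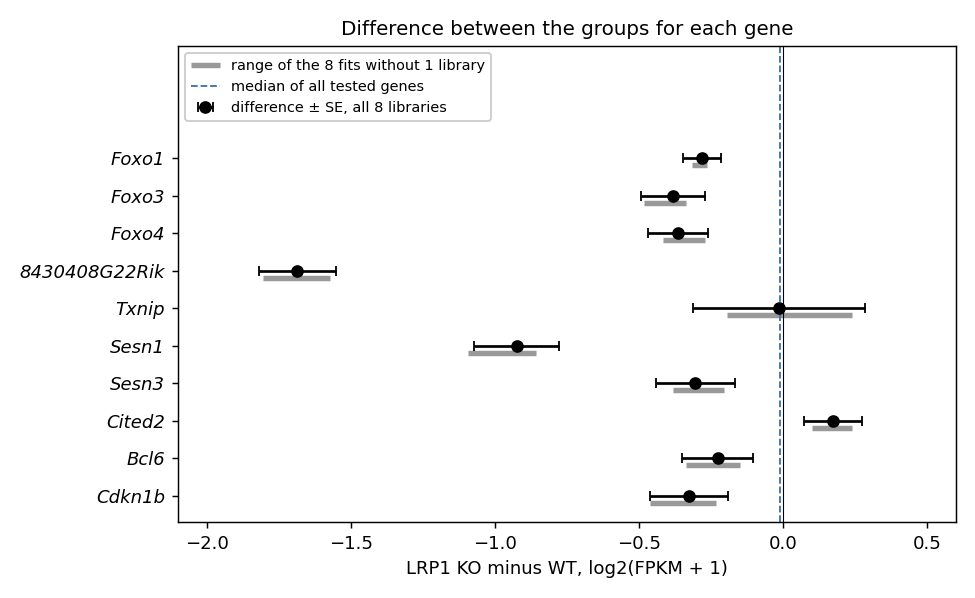
Difference between LRP1 KO and WT for the 10 genes on the log2(FPKM + 1) scale (x axis), with bars of 1 SE and the range over fits that leave out 1 library. 8430408G22Rik is at -1.68 and Sesn1 at -0.92, Cited2 is the only gene above 0 at 0.17, and the range of Txnip spans 0.

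In WT cells the levels per length fell into 3 tiers. Cited2 (46.5 FPKM), Txnip (43.3 FPKM), 8430408G22Rik (36.8 FPKM) and Sesn1 (35.0 FPKM) formed the highest, and each overlapped with its neighbor in this order. Foxo3 (15.5 FPKM), Cdkn1b (14.0 FPKM) and Foxo4 (12.8 FPKM) followed and also overlapped, 2.26-fold below Sesn1 at the upper step. Bcl6, Foxo1 and Sesn3 were lowest, and the ranges of Bcl6 and Foxo1 (5.20 against 5.06 FPKM) and of Foxo1 and Sesn3 (4.78 against 4.74 FPKM) were only just apart. Foxo1 stood at the 25.5th percentile of the WT levels of tested genes, Foxo3 at the 58.6th and 8430408G22Rik at the 80.1st. The spread between WT libraries was smallest for Foxo1, with a coefficient of variation of 2.67%, and largest for Txnip, at 45.4%.

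LRP1 KO library 4 was the highest KO library for 7 of the 10 genes, Foxo1, Foxo3, Foxo4, 8430408G22Rik, Sesn1, Bcl6 and Cdkn1b, and the lowest for Txnip and Cited2. Its distance from the WT mean was compared with that of the mean of the other 3 KO libraries. It reached 84.7% of that distance for 8430408G22Rik, 57.4% for Foxo1, 53.8% for Foxo4, 50.1% for Sesn3, 47.7% for Sesn1 and 18.1% for Foxo3. For the remaining 4 genes it lay on the other side of the WT mean from the mean of the other KO libraries, at 105% of it for Cdkn1b, 109% for Bcl6, 97.9% for Cited2 and 61.1% for Txnip. The median over the 1547 called genes was 54.6%. Lrp1 was at 6.42% of the WT mean in this library and at 2.32% to 4.33% in the other KO libraries.

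**Figure D4:**
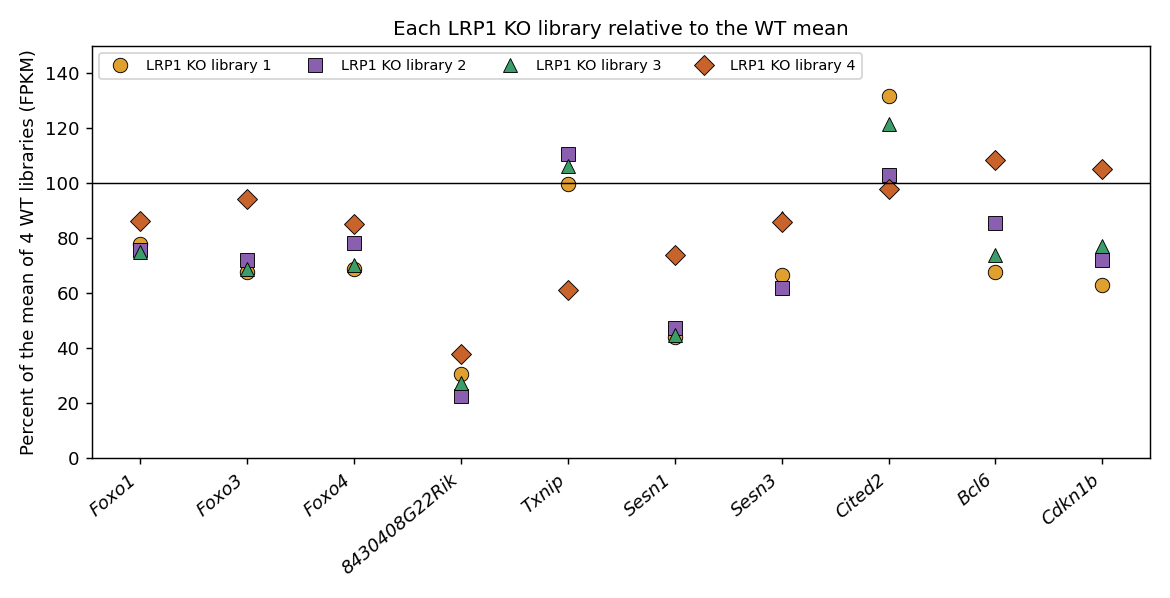
Level of each gene in the 4 LRP1 KO libraries as a percent of its WT mean (y axis), with 1 point per library. KO library 4 is at 94.5% for Foxo3, 73.9% for Sesn1 and 38.0% for 8430408G22Rik.

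The same library had the lowest EC marker sum of the KO group, and the differences were therefore also fitted with the mean EC marker level as a covariate. The difference was then -1.50 (SE 0.17) for 8430408G22Rik, -0.54 (SE 0.10) for Sesn1, -0.35 (SE 0.40) for Txnip, -0.22 (SE 0.13) for Foxo4, -0.21 (SE 0.09) for Foxo1, -0.20 (SE 0.19) for Sesn3 and -0.14 (SE 0.11) for Foxo3. For Cdkn1b, Cited2 and Bcl6 it lay between -0.05 and 0.06, with SEs of 0.10 to 0.12. With the mean macrophage marker level as the covariate, the SEs were larger for all 10 genes. The difference was then -1.80 (SE 0.40) for 8430408G22Rik, -1.40 (SE 0.40) for Sesn1, -0.91 (SE 0.27) for Foxo3, -0.83 (SE 0.29) for Bcl6, -0.82 (SE 0.26) for Foxo4 and -0.71 (SE 0.38) for Cdkn1b. It was -0.40 (SE 0.20) for Foxo1, -0.25 (SE 0.41) for Sesn3, 0.60 (SE 0.26) for Cited2 and 1.01 (SE 0.80) for Txnip. The summed macrophage markers themselves did not overlap between the groups. The part of the cell mixture in the members' differences was not tested beyond these fits.

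After the group means were removed, Pearson's r over the 8 libraries ranged from -0.76 to 0.92 for the 45 pairs of members, with a median of 0.38 and 28 pairs positive. Foxo1 and Sesn1, and likewise Bcl6 and Cdkn1b, had an r of 0.92, and Foxo3 and Txnip had the lowest. These points share libraries, and KO library 4 lies far out for several of the genes, so the values are a description.

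Of the 11388 other tested genes, those most like 8430408G22Rik over the 8 libraries, by Pearson's r of log2(FPKM + 1), were Ttc3 (0.996), Pccb (0.988), Ypel2 (0.987), Rhobtb1 (0.986) and Eepd1 (0.986). Foxo1 ranked 7th with 0.985 and Sesn1 89th with 0.950. For Foxo1 they were Fbxw4 (0.996), Slc48a1 (0.994), Aldoc (0.991), Ahcy (0.990) and Cdk19 (0.989), with 8430408G22Rik 9th and Sesn1 16th at 0.983. The group difference enters each of these values.

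A wider list of 49 FoxO target genes beyond the members was then examined. Of the 48 in the table, 42 were tested and 15 were called, 8 higher and 7 lower, or 35.7% beside 13.6% of all tested genes. Their median log2 difference was -0.08, and 19 were higher and 23 lower irrespective of the test. By limma at an unadjusted p under 0.05 there were 24 (9 higher and 15 lower), or 57.1% beside 33.7% of all tested genes. FoxO factors are known to activate some of the listed genes and to repress others, such as Ccnd1. These signs therefore do not show a direction of FoxO output. Of the 41 with a WT mean of at least 1 FPKM, 14 were called, 7 higher and 7 lower. The list was assembled with earlier results of these data known. The number called was 20 without KO library 4, but 7, 3, 5 and 7 without WT libraries 1, 2, 3 and 4, and 2 without any of KO libraries 1, 2 or 3. With the macrophage covariate it was 0 by limma, with 23 at an unadjusted p under 0.05, and with the EC covariate it was 2. The SEs were larger under the macrophage covariate, as for Trim63, at -2.38 (SE 0.63) against -1.32 (SE 0.25), and Ccnd1, at 2.43 (SE 0.67) against 1.21 (SE 0.27). Apart from Cdkn1a, Trim63 and Il7r, each of the 15 called genes was called in 1 to 3 of the 8 fits that left out a library.

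Of 10 cell-cycle targets, 3 rose and 0 were called lower, with a median difference of -0.00. Cdkn1a, which encodes the cyclin-dependent kinase inhibitor p21 and is also a p53 target, rose from 146 ± 12.03 to 228 ± 11.9 FPKM (SD, n = 4), with all KO libraries above WT (log2 difference 0.65, SE 0.07, limma adjusted p = 0.00113), and was called in each fit that left out a library. Ccnd1 and Ccnd2, cyclin D genes that FoxO factors are known to repress, rose from 29.1 ± 7.71 to 70.01 ± 22.6 FPKM and from 40.1 ± 5.90 to 72.4 ± 20.4 FPKM (SD, n = 4). Their log2 differences were 1.21 (SE 0.27, limma adjusted p = 0.0235) and 0.80 (SE 0.20, limma adjusted p = 0.0318), and the groups overlapped for Ccnd2. KO library 4 was the lowest KO library for both, at 38.7 and 45.8 FPKM.

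Of 6 apoptosis targets, 4 were tested. Bcl2l11, which encodes the BH3 protein BIM, fell from 4.02 ± 0.394 to 2.89 ± 0.424 FPKM (SD, n = 4, log2 difference -0.37, limma adjusted p = 0.0373). Pmaip1, which encodes NOXA and is also a p53 target, rose from 11.2 ± 1.26 to 16.8 ± 3.12 FPKM (SD, n = 4, log2 difference 0.54, limma adjusted p = 0.0284), with overlapping groups. Of 5 stress-defence targets, the mitochondrial superoxide dismutase gene Sod2 fell from 19.9 ± 1.54 to 15.8 ± 1.57 FPKM (SD, n = 4, log2 difference -0.32, limma adjusted p = 0.0336). The mitochondrial peroxiredoxin gene Prdx3 rose from 32.5 ± 1.52 to 37.1 ± 0.746 FPKM (SD, n = 4, log2 difference 0.19, limma adjusted p = 0.0418). Neither list thus moved in 1 direction.

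Of 8 tested targets in autophagy and protein breakdown, 3 fell and 1 rose, with a median difference of -0.21. Trim63, which encodes the muscle ubiquitin ligase MuRF1, spanned 42.4 to 47.4 FPKM across WT libraries and measured 14.5, 15.5, 11.7 and 32.6 FPKM across the KO libraries, a pattern across the KO libraries like that of Sesn1. It fell to 41.8% of the WT mean (log2 difference -1.32, SE 0.25, limma adjusted p = 0.0136) and was called in each fit that left out a library. The ATG8 family gene Gabarapl1 fell from 256 ± 33.3 to 175 ± 28.0 FPKM (SD, n = 4, log2 difference -0.55, limma adjusted p = 0.0233). The autophagy kinase gene Ulk1 fell from 16.4 ± 1.69 to 12.9 ± 1.48 FPKM (SD, n = 4, log2 difference -0.33, limma adjusted p = 0.0493). Atg12, a ubiquitin-like conjugation factor, rose from 25.4 ± 1.11 to 30.1 ± 2.46 FPKM (SD, n = 4, log2 difference 0.23, limma adjusted p = 0.0488). Of the 8 fits that left out a library, Gabarapl1 was called in 2 and Ulk1 and Atg12 in 1 each, and the calls of Ulk1 and Atg12 were lost in 13 and 12 of all 15 alternatives.

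Of 9 metabolic targets, 5 were tested and 1 was called. Lpl, which encodes lipoprotein lipase, fell from 208 ± 36.5 to 120 ± 35.3 FPKM (SD, n = 4, log2 difference -0.81, SE 0.19, limma adjusted p = 0.0261), and KO library 4 overlapped with WT at 173 FPKM. Of 10 endothelial and signaling targets, Ddit4, which encodes the mTORC1 inhibitor REDD1, fell from 37.2 ± 3.98 to 26.6 ± 3.81 FPKM (SD, n = 4, log2 difference -0.47, limma adjusted p = 0.0263). Tgfb2, a TGF-β ligand gene, rose from 4.80 ± 0.307 to 8.19 ± 2.17 FPKM (SD, n = 4, log2 difference 0.63, limma adjusted p = 0.034). Il7r, a cytokine receptor gene of lymphocytes, was at 0.200 ± 0.0831 FPKM in WT and 1.27 ± 0.147 FPKM in KO (SD, n = 4). It met the filter only through the KO libraries, so its call among the 8 is no independent test. The summed macrophage markers were higher in the same libraries. The summed pan-leukocyte markers overlapped between the groups, although 3 of the 4 with a WT mean of at least 1 FPKM were called higher. Ptprc, too low to be tested, was also higher in KO without overlap. The part of other cell types in these changes was not tested beyond the covariate fits.

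**Figure D5:**
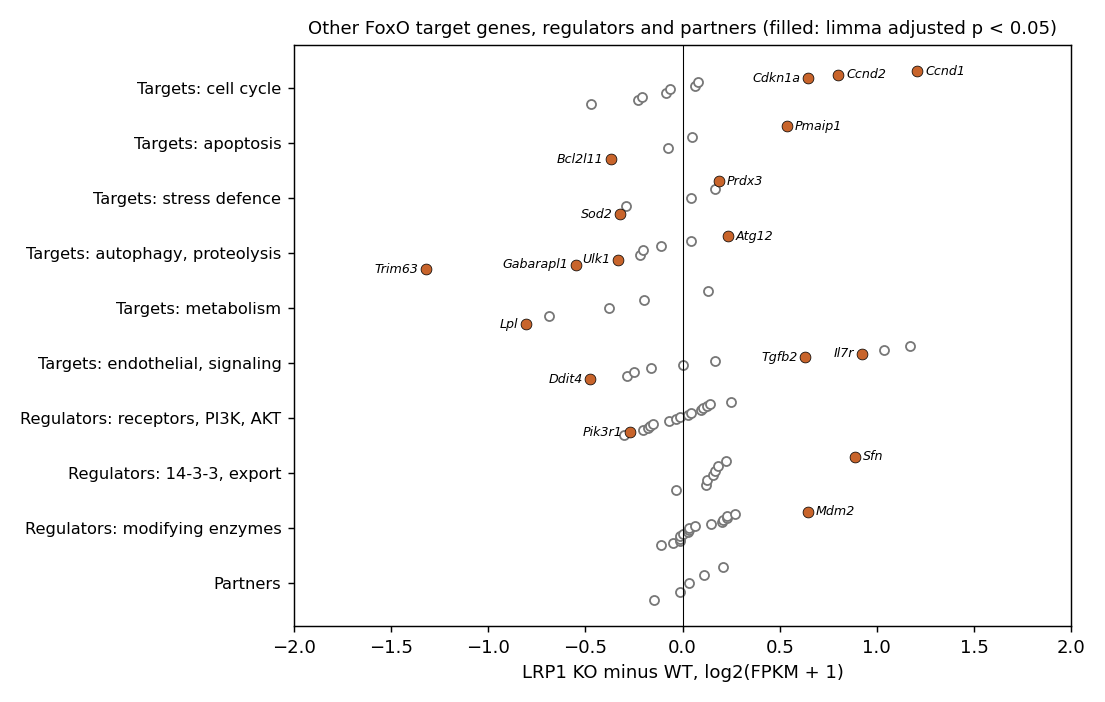
Difference between LRP1 KO and WT on the log2(FPKM + 1) scale (x axis) of the other FoxO targets, regulators and partners by role (y axis), with 1 point per gene, filled where the limma adjusted p is under 0.05. Targets lie on both sides of 0, with 8 called higher and 7 lower, and 3 of the 46 tested regulators and partners are called.

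Genes that act upstream of the FoxO factors or bind them were examined next. Of 47 regulators and partners, 46 were tested and 3 were called, 2 higher and 1 lower, or 6.52% beside 13.6% of all tested genes, with a median difference of 0.04. At an unadjusted p under 0.05 there were 15 of the 46 (11 higher and 4 lower), or 32.6% beside 33.7% of all tested genes. By role, they included 5 of the 8 genes for 14-3-3 proteins and export (62.5%), all higher. For receptors, PI3K and AKT it was 5 of 16 (31.2%), 1 higher and 4 lower. For modifying enzymes it was 5 of 17 (29.4%), all higher. Pik3r1, which encodes the p85α regulatory subunit of PI3K, fell from 11.1 ± 0.688 to 8.99 ± 0.579 FPKM (SD, n = 4, log2 difference -0.27, limma adjusted p = 0.0331). Mdm2, which encodes a ubiquitin ligase for p53 and FoxO proteins and is itself a p53 target, rose from 51.5 ± 7.20 to 80.8 ± 10.1 FPKM (SD, n = 4, log2 difference 0.64, SE 0.12, limma adjusted p = 0.0118) and was called in each fit that left out a library. Sfn, the 14-3-3σ gene, rose from 2.47 ± 1.05 to 5.35 ± 1.49 FPKM (SD, n = 4, log2 difference 0.89, limma adjusted p = 0.0418) with overlapping groups. By limma, 0 of the 5 partner genes were called, and 0 of them had an unadjusted p under 0.05. Without KO library 4, 7 regulators and partners were called higher and 4 lower, when 26.2% of all genes were called. Without any of KO libraries 1 to 3 or WT libraries 2 or 3 the number called was 1, and under either covariate it was 0 by limma, with 4 (macrophage) and 2 (EC) at an unadjusted p under 0.05. Of the 8 fits that left out a library, Pik3r1 was called in 2 and Sfn in 3.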

How the data were processed

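RNA was sequenced from 8 libraries, 4 WT and 4 LRP1 KO, grouped by their titles. The values deposited by the authors are FPKM. Their processing notes name TopHat2, Cufflinks and mm10, without versions, whereas the study's methods describe trimGalore, STAR, featureCounts and edgeR, whose counts the table does not hold. The column sums (503571 to 504112) and highest value (7793) were nearly equal, which points to quantile normalization across libraries that the sources used here do not state. It forces equal distributions, so a shift of most genes would be hidden. Depth is therefore unknown, and no counting error is given.

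Genes of at least 1 FPKM in at least 4 libraries (11389 of 22520) were tested on log2(FPKM + 1) with limma 3.58.1 in R 4.3.3 (variance trend, Benjamini-Hochberg adjustment, calls at an adjusted p of 0.05), and the step was tested on simulated data. Differences on this scale understate the change of low genes. All 10 members passed the filter. The SE of a member comes from the same fit. Nothing says that the libraries are separate animals, so p-values measure the spread between these libraries only. Positions are from GENCODE M21 on GRCm38, which matched 21740 gene IDs.

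The members and all lists were chosen with earlier results of these data known. Named were all members, the called genes of each list (the 6 with the largest difference where more were called), the 5 genes most like 8430408G22Rik and Foxo1, Lrp1, Bglap, Bglap2 and the cell markers Pecam1 and Ptprc. The rule also held Cdh5 and Emr1, which are given only within their lists. Foxo6, Sesn2 and Rassf4 were named after their values were seen. The alternatives were another pseudocount (0.1), no filter, rescaled libraries, no variance trend, the replicate number as a block, EC or macrophage marker covariates, and each library left out.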

Additional observations from a re-analysis of the deposited data

Results flagged for a closer look

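In each group of 4 libraries, a single library far from the others was sought. Dixon's 95% critical value for the gap over the range was used. Of 32 groups, 4 passed, where chance passes about 1 in 20 of independent groups. The groups are genes measured in the same libraries, so they are not independent, and all flags fell in WT library 2 and LRP1 KO library 4. Foxo1 was at 5.06 FPKM in WT library 2 against 4.78 to 4.83 FPKM in the others (ratio 0.841). Foxo4 was at 15.7 FPKM in the same library against 11.7 to 12.3 FPKM (ratio 0.868). Foxo3 was at 14.6 FPKM in LRP1 KO library 4 against 10.5 to 11.1 FPKM (ratio 0.845). Sesn1 was at 25.9 FPKM in that library against 15.4 to 16.5 FPKM (ratio 0.892).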

How the results depend on the processing

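The difference of 8430408G22Rik stayed negative and that of Sesn1 likewise under all alternatives run. With each library left out in turn, 223 to 1387 of all genes were called higher (714 with all libraries) and 210 to 1572 lower (833), 1 to 10 of the other FoxO targets higher (8) and 1 to 10 lower (7), and 1 to 7 of the regulators and partners higher (2) and 0 to 4 lower (1). The lowest counts over all genes came without LRP1 KO library 2 and the highest without KO library 4. With no filter on low values, 3 targets were called higher and 1 lower, and 1 regulator or partner higher and 1 lower. Under the macrophage covariate 2 genes were called higher and 3 lower by limma, with 0 targets (23 at an unadjusted p under 0.05) and 0 regulators and partners (4), and the median of the members was -0.76. Under the EC covariate 142 genes were called higher and 28 lower, with 2 targets higher and 0 lower (7 at an unadjusted p under 0.05) and 0 regulators and partners (2). Txnip turned to 0.00391 with rescaled libraries, 1.01 under the macrophage covariate, and 0.0779, 0.242 and 0.18 without WT libraries 1 and 4 and KO library 4, with a range of -0.193 to 0.242 as each library was left out. Under the EC covariate Cited2 was at -0.048 and Bcl6 at 0.0585. The cause was not tested.

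Whether the replicate numbers pair the samples is not known. Deviations of same-numbered WT and KO libraries had an r of 0.158, 0.141, 0.340 and -0.312. Those of differently numbered libraries ranged from -0.404 to 0.377, so these values do not settle it. With the replicate block, 493 genes were called higher and 520 lower, 4 targets higher and 4 lower, and 1 regulator or partner higher and 1 lower. Of the 4 members called, Foxo1 and Foxo4 were lost under the block, and Foxo4 also with no filter, with rescaled libraries and without the variance trend. Depth is unknown, so low genes such as Sesn3 and Foxo1 carry no counting error.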

Other observations

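The study proposes that nuclear FoxO1 holds osteocalcin down and that LRP1 loss moves FoxO1 out of the nucleus. It drew on the location of FoxO1 in lung ECs and on constitutively active FoxO1, which blocked the rise of osteocalcin. RNA levels do not show this step. Bglap and Bglap2, 2 near-identical osteocalcin genes whose reads the counting may split, were higher in every LRP1 KO library than in any WT library. Bglap was at 0.224 ± 0.161 FPKM in WT and 3.36 ± 0.920 FPKM in KO (SD, n = 4). Bglap2 was at 0.138 ± 0.121 FPKM in WT and 3.50 ± 1.06 FPKM in KO (SD, n = 4), and both were listed at 0 in WT library 2. Both met the filter on low values only through the KO libraries, so no test is given. KO library 4 had 3.49 FPKM of Bglap and 4.01 FPKM of Bglap2. Its distance from the WT mean was 106% and 121% of that of the mean of the other KO libraries. A relation of these levels to those of the FoxO factors was not tested.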
